A study of Mus musculus with 18 samples.

Results

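Metallothioneins and zinc transporters, the genes by which skin cells bind and move zinc, were followed across unstripped, tape-stripped and extract-fed stripped mouse skin. The group holds 9 named genes, Mt1, Mt2, Mt3, Mt4, Slc30a1, Slc39a2, Slc39a4, Slc39a6 and Slc39a14. All 17 probe sets whose symbol in the platform annotation is exactly one of these names were taken, out of 45037 probe sets on the array that are not Affymetrix controls. A probe set is a group of short probes that gives 1 value per array for a transcript. Of the 17, 8 probe sets of 7 genes ranged by at least 0.01 log2 over all 18 arrays, and the other 9 were constant and carry no information. The informative probe sets were thus selected on their measured range alone, and the genes themselves were named with earlier results of these data known: the smallest range among the 8 was 1.30 (Mt1), and the largest among the 9 was 8.5e-08 (Slc30a1). Mt3 and Slc39a4 have constant probe sets only, so nothing can be said of them here.

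Skin came from the back of male hairless albino mice of the HR-1 strain, aged 6 weeks per the labels, on Affymetrix mouse arrays, with 6 biological replicates per group. NT skin was left intact. In the TS group the left side of the back was stripped with cellophane tape 3 times per week for 4 weeks, each time until transepidermal water loss stood at 70 to 100 g/m2/h. The WB group had the same stripping and an oral winged bean extract (200 mg/kg daily, suspended in 0.3% carboxymethylcellulose), dosed on 5 days of each of 5 weeks, with the first dose 1 week ahead of the tape. Whether NT and TS mice received the vehicle alone is not stated in the labels. Values below are the deposited log2 signals, and ± is the SD over 6 arrays.

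Metallothioneins are small cysteine-rich proteins that bind zinc and copper and buffer their free levels in the cell. Mt1 and Mt2 are made in most tissues and are induced by metals, glucocorticoids and stress, with the zinc-sensing transcription factor encoded by Mtf1 acting at metal response elements in their promoters. Mt3 is known mainly from brain, and Mt4 from differentiating stratified squamous epithelium such as the epidermis. Transporters of the Slc30a family move zinc out of the cytosol, and those of the Slc39a family move it in. Skin holds much of the zinc of its body in the epidermis, and loss of the human counterpart of Slc39a4 causes a zinc deficiency disease with skin lesions.

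In RefSeq's GRCm38.p6 annotation the metallothionein genes neighbour each other on chromosome 8 in the order Mt4, Mt3, Mt2 and Mt1, with only the non-coding gene Gm39227 among them. Promoter windows from RefSeq, 250 bases before to 50 after the annotated start, were available for 6 of the 9 genes. Those of Mt1 and Mt2, which were lower in WB than in TS, and of Mt4, which rose with them in TS against NT but was not lower in WB than in TS, are shown 5′ to 3′ with capitals marking matches to the core of the metal response element.
Mt1, chr8:94178839-94179138, + strand: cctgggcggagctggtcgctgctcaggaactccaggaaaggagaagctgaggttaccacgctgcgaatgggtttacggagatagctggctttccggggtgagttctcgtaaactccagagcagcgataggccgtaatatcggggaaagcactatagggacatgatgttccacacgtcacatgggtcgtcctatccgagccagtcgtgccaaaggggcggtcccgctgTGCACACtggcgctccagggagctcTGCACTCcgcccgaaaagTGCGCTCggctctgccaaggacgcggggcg
Mt2, chr8:94172368-94172667, + strand: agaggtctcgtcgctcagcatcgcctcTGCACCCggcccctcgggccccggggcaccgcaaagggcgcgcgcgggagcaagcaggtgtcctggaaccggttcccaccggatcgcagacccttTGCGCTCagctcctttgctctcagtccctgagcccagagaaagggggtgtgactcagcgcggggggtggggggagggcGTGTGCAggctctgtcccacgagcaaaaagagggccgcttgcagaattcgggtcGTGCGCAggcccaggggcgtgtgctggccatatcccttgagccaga
Mt4, chr8:94136954-94137253, + strand: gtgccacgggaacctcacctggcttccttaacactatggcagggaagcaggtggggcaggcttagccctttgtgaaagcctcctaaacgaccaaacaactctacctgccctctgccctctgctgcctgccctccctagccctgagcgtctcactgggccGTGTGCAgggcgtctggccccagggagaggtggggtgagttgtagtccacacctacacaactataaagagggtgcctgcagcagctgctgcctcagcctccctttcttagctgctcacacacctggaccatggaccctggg
The core was searched as TGCACNC and TGCGCNC on both strands, where N is any base and the 2 spellings cannot match at the same position. Mt2 held 4 matches and Mt1 held 3, while Mt4 and Mt3 held 1 each, Slc30a1 held 2 and Slc39a2 none. Of all 32851 windows of this length, 25.7% held at least 1 match, 7.11% at least 2, 1.97% at least 3 and 0.517% at least 4. Counted from the annotated start, the matches of Mt1 began at positions -23, 3 and 21. Those of Mt2 began at -223, -128, -50 and 5, and that of Mt4 at -91. A match is a stretch of letters, not a measured binding site. Matches outside the window were not counted, so the counts depend on where the start of each gene is annotated.

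Stripping was accompanied by higher signals of Mt1, Mt2, Mt4 and the zinc importer gene Slc39a6. In TS against NT, 4 of the 17 probe sets rose and none fell at an adjusted p under 0.05 (limma), where 10.1% of all probe sets on the array were called, 4.97% higher and 5.14% lower. Set against the 8 that carry information the share is 50%, and 38.1% of the 11946 varying probe sets on the array were called. At an unadjusted p under 0.05, 5 were higher and 1 was lower. Ranges of 3 members did not overlap (Mt2, Mt4 and Slc39a6), beside 6.6% of all probe sets. The median difference of the 8 was 0.37, and that of all varying probe sets 0.00317. Since whole skin was profiled, fewer cells of a type and less RNA per cell cannot be told apart in any of these values.

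Mt4, the metallothionein of differentiating epidermis, had the largest difference of the group. In unstripped skin its signal was 8.42 at the lowest, 8.94 at the median and 9.51 at the highest. In stripped skin these values were 10.04, 11.13 and 11.42, so every TS array lay above every NT array. The mean rose from 8.92 ± 0.42 to 11.01 ± 0.50, by 2.09 (SE 0.24, 4.25-fold, adjusted p = 3.35e-05).

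Mt2, one of the widely expressed metal-inducible metallothioneins, ran from 11.42 to 12.18 in NT with a median of 11.52. In TS it ran from 12.24 to 12.89 with a median of 12.50, again without overlap, the highest NT array being NT 6 and the lowest TS array TS 1. The mean rose from 11.67 ± 0.32 to 12.54 ± 0.22, by 0.87 (SE 0.14, 1.83-fold, adjusted p = 0.000367).

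Mt1, its close paralogue, was read by a pair of informative probe sets. The brighter, whose name ends in the suffix that Affymetrix gives to probes shared by several transcripts, may also read related metallothionein RNA. It ran from 11.79 to 12.34 in NT (median 11.92) and from 12.20 to 12.71 in TS (median 12.43), with NT 6 overlapping the TS range. Its mean rose from 11.98 ± 0.20 to 12.46 ± 0.20, by 0.48 (SE 0.10, 1.39-fold, adjusted p = 0.00277). The dimmer probe set, close to the array median of 6.94, was at 7.16 ± 0.10 in NT and 7.43 ± 0.35 in TS. Its difference of 0.27 (SE 0.12) did not pass (adjusted p = 0.189), and TS 5 alone stood above 8, at 8.05. Without TS 5 that difference was 0.14.

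**Figure D1:**
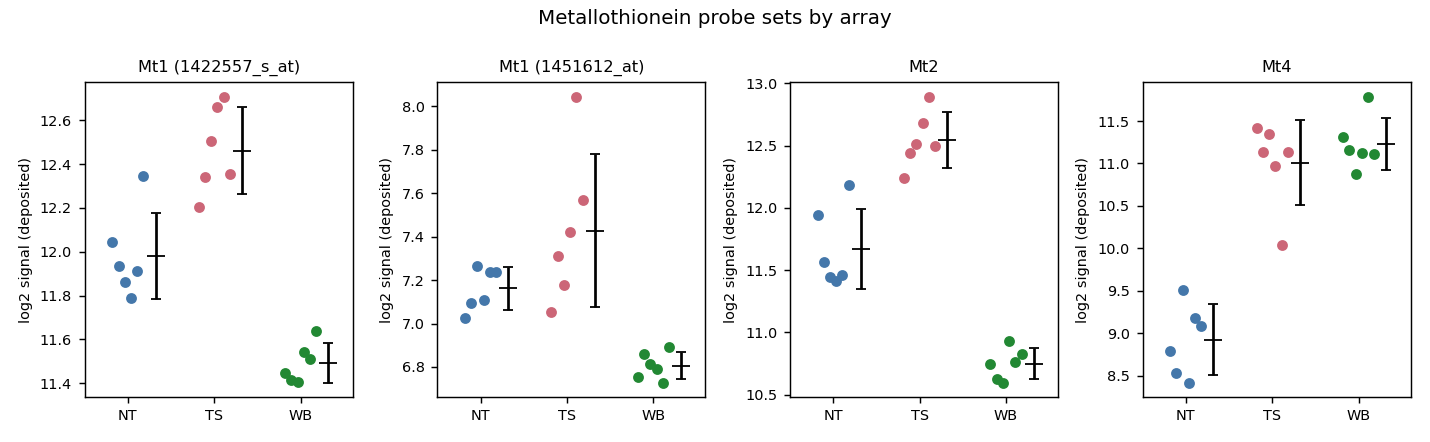
Deposited log2 signal of the 4 informative metallothionein probe sets on each of 6 arrays per group (points), with the mean and SD beside them, each panel on its own axis. Mt1 and Mt2 were highest in TS and lowest in WB, while Mt4 was low in NT, from 8.42 to 9.51, and above 10 on every stripped array with or without extract.

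The within-array difference between the Mt2 probe set and the brighter Mt1 probe set, chosen after the values were seen, took separate ranges in the 3 groups. It ran from -0.45 to -0.10 in NT, from 0.01 to 0.19 in TS and from -0.81 to -0.61 in WB. The measure is a description and was not tested, and since the 2 probe sets can respond differently to the same change in RNA, it does not show which gene changed more.

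Among the transporters Slc39a6 rose with stripping. Slc39a6 encodes a zinc importer of the plasma membrane. Its informative probe set ran from 9.23 to 9.87 in NT (median 9.68) and from 9.99 to 10.61 in TS (median 10.38), so that the groups did not overlap. The mean went from 9.58 ± 0.26 to 10.36 ± 0.23, a rise of 0.78 (SE 0.13, 1.72-fold, adjusted p = 0.000794). The other 3 probe sets of this gene were constant.

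Slc30a1, the exporter of the plasma membrane and a known target of the zinc sensor, was at 9.88 ± 0.11 in NT and 9.996 ± 0.24 in TS. The difference of 0.11 did not pass (adjusted p = 0.589, 95% interval -0.09 to 0.32), and it was 0.19 without TS 5 and 0.055 without TS 4. Slc39a14, an importer of zinc and iron known to be induced in inflammation, was at 8.09 ± 0.15 and 8.15 ± 0.32, a difference of 0.06 (95% interval -0.22 to 0.33, adjusted p = 1). Its sign turned without TS 5, the highest TS array, to -0.056. Slc39a2, an importer found in keratinocytes, ran from 8.41 to 8.85 in NT and from 7.89 to 8.54 in TS. Its difference of -0.28 (SE 0.11) did not pass over the whole table (adjusted p = 0.103), but did when only varying probe sets were tested (adjusted p = 0.0377). Without TS 5, the lowest TS array for Slc39a2, the difference was -0.19.

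**Figure D2:**
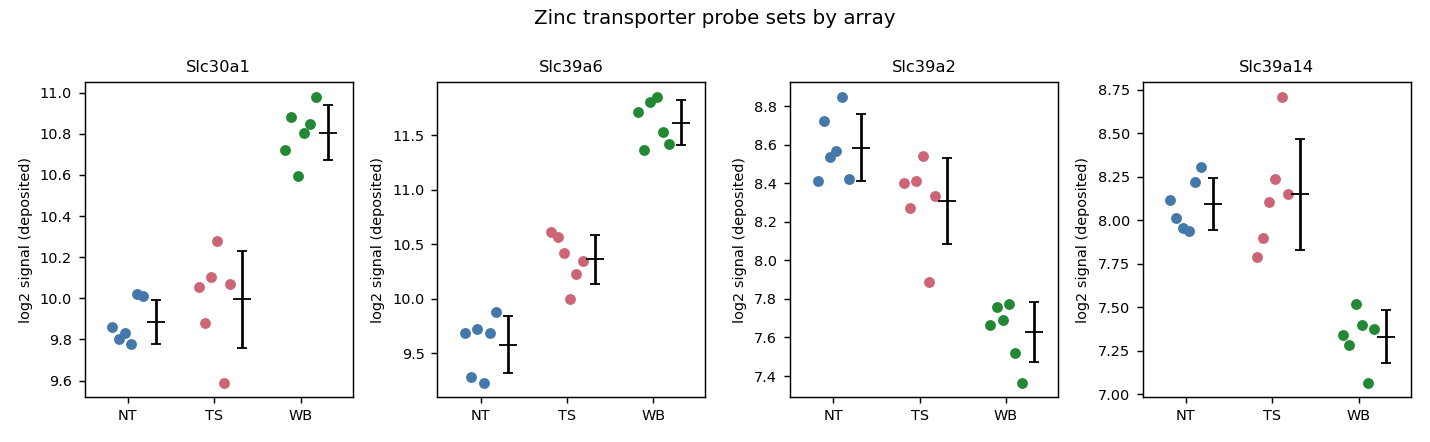
Deposited log2 signal of the 4 informative zinc transporter probe sets on each of 6 arrays per group (points), with the mean and SD beside them, each panel on its own axis. Slc39a6 climbed from NT through TS to WB, Slc30a1 was separated only in WB, and Slc39a2 and Slc39a14 were lowest in WB.

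Other tissues of the sample also differed between NT and TS. The mean of 10 skeletal muscle markers was 12.31 to 14.16 in NT and 10.16 to 11.003 in TS, with 9 of 10 lower in the fit. Adipocyte markers fell in 5 of 6 cases, hair follicle markers in 7 of 10 and macrophage markers in 5 of 6 (the sixth rose), while of 7 epidermal markers 4 rose and 2 fell. Liver markers averaged 14.41 on NT 5 and 6.96 to 7.05 on the other NT arrays. Without NT 5 the differences of Mt1 (brighter probe set), Mt2, Mt4 and Slc39a6 were 0.47, 0.83, 2.14 and 0.80, with adjusted p of 0.0074, 0.00115, 8.69e-05 and 0.00161. Markers of epidermis and dermal fibroblasts, which define the labelled tissue, averaged 11.52 ± 0.27 and 12.98 ± 0.06 in NT against an array median of 6.94. The part of cell composition in the metallothionein and transporter differences was not tested.

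WB was compared with TS because these groups differ, per the labels, in the extract. Here 7 of the 17 probe sets were called, 2 higher and 5 lower, beside 23.6% of all probe sets on the array (12.5% higher and 11.1% lower). Of the 8 informative probe sets 87.5% were called, near the 88.8% of all varying probe sets (47.1% higher and 41.7% lower), so the count says nothing particular about these genes. The array carries controls for the 3′ and 5′ ends of actin and Gapdh transcripts, and a larger 3′ minus 5′ difference means less signal from the 5′ part of the transcript. The actin difference was -0.51 ± 0.10 in NT, 0.16 ± 0.07 in TS and 5.69 ± 0.25 in WB, and that of Gapdh -0.59 ± 0.11, -0.44 ± 0.11 and 3.70 ± 0.36. Between WB and TS both controls differed (exact permutation test, two-sided, p = 0.00216, the smallest that 6 against 6 arrays allow, adjusted over 30 tests 0.00282). In TS against NT the actin control also differed, by 0.66 (exact permutation p = 0.00216, adjusted 0.00282). Marker means of epidermis, fibroblasts, muscle, adipocytes and macrophages were also lowest in WB, at 10.75, 12.21, 7.75, 8.50 and 8.83, against 11.82, 12.86, 10.59, 10.04 and 10.39 in TS, while that of hair follicle was 8.64 in WB and 8.34 in TS. Of the 7 epidermal markers the basal keratins Krt5, Krt14 and Krt15 fell in WB against TS, Trp63 rose by 1.35 (adjusted p = 9.16e-08), and Krt1 (0.0017), Krt10 (0.13) and Krt2 (-0.09) did not pass. Of 6 fibroblast markers 1 rose and 3 fell in WB against TS (limma). Of 6 adipocyte markers 1 rose and 4 fell, and of 6 macrophage markers 1 rose and 5 fell. The risen genes were Pdgfra (0.40, adjusted p = 1.91e-05), Lpl (0.68, adjusted p = 4.82e-05) and Csf1r (0.58, adjusted p = 8.48e-05). Muscle markers fell in 8 of 10 cases and none rose. The Gapdh ranges of NT and TS overlapped (difference 0.15, exact permutation p = 0.0476, adjusted 0.0529). The WB arrays lay apart from both other groups in both controls. In every WB value below, the part of this control difference and that of the extract cannot be told apart, and WB against NT also differs in stripping. The actin ranges of NT (-0.65 to -0.38) and TS (0.08 to 0.26) did not overlap either. In the TS against NT values above, the part of that control difference and that of stripping cannot be told apart.

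**Figure D3:**
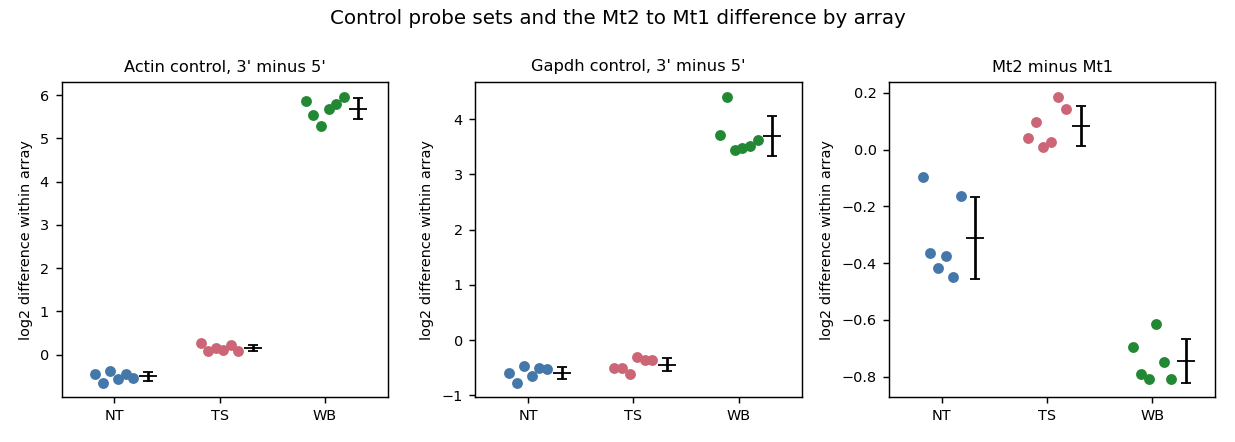
Within-array log2 differences on each of 6 arrays per group (points), with the mean and SD: 3′ minus 5′ signal of the actin and Gapdh controls, and Mt2 minus Mt1. The controls of the WB arrays lay far from those of NT and TS, and Mt2 minus Mt1 took 3 separate ranges.

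Mt1 and Mt2 were lower in WB than in either other group. Mt2 ran from 10.60 to 10.93 in WB with a median of 10.75, below all TS and all NT arrays. It fell by 1.80 (SE 0.14, 3.47-fold lower, adjusted p = 1.20e-08) against TS and by 0.92 (SE 0.14, 1.90-fold, adjusted p = 2.61e-05) against NT. For the brighter Mt1 probe set the WB arrays ran from 11.40 to 11.64, also below every other array. That probe set fell by 0.97 (SE 0.10, 1.96-fold, adjusted p = 3.76e-07) against TS and by 0.49 (SE 0.10, 1.40-fold, adjusted p = 0.000494) against NT, the latter reduced to 0.22 in size (-0.22, adjusted p = 0.0371) after quantile normalization. The dimmer Mt1 probe set averaged 6.81 ± 0.06 in WB, under the WB array median of 6.903, and no fold is given. It fell by 0.62 (SE 0.12, adjusted p = 0.000493) against TS and by 0.36 (SE 0.12, adjusted p = 0.0257) against NT, a call lost without NT 3 (adjusted p = 0.0517).

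Mt4 was not lower in WB. Its WB signals were 10.88 at the lowest, 11.14 at the median and 11.79 at the highest, overlapping the TS range. The WB minus TS difference of 0.22 (SE 0.24) did not pass (adjusted p = 0.55), with a 95% interval from -0.29 to 0.73. Against NT it rose by 2.31 (SE 0.24, 4.95-fold, adjusted p = 5.32e-07), with every WB array above every NT array. The WB and TS comparisons share arrays, and so do both comparisons with NT.

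Slc39a6 and Slc30a1 were highest in WB. Slc39a6 ran from 11.36 to 11.85 there, above all TS arrays, with a mean of 11.62 ± 0.21. This was 1.26 above TS (SE 0.13, 2.39-fold, adjusted p = 7.74e-07) and 2.04 above NT (SE 0.13, 4.10-fold, adjusted p = 1.95e-09), so the order NT, TS, WB held without overlap between neighbours. Slc30a1 ran from 10.60 to 10.98 in WB, and its mean of 10.81 ± 0.13 was 0.81 above TS (SE 0.10, 1.75-fold, adjusted p = 2.85e-06) and 0.92 above NT (SE 0.10, 1.89-fold, adjusted p = 5.95e-07).

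Slc39a2 and Slc39a14 were lowest in WB. Slc39a2 ran from 7.37 to 7.77 there and fell by 0.68 (SE 0.11, 1.60-fold, adjusted p = 5.84e-05) against TS and by 0.96 (SE 0.11, 1.94-fold, adjusted p = 1.31e-06) against NT. Slc39a14 ran from 7.07 to 7.52, with differences of -0.82 (SE 0.13, adjusted p = 5.27e-05) from TS and -0.76 (SE 0.13, adjusted p = 0.000102) from NT. Neither WB range overlapped the NT or TS range of the same gene.

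In WB against NT, all 8 informative probe sets were called, 3 higher and 5 lower, and none of their ranges overlapped. These are 8 of the 17 in all, beside 23.7% of all probe sets called, and beside 89.3% of the varying probe sets (45.7% higher and 43.6% lower). Groups without overlap were found for 81.7% of varying probe sets in this comparison, for 77.6% in WB against TS, where 7 of 8 did not overlap, and for 24.9% in TS against NT, where 3 of 8 did not. Over all probe sets on the array these shares were 21.7%, 20.6% and 6.6%.

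**Figure D4:**
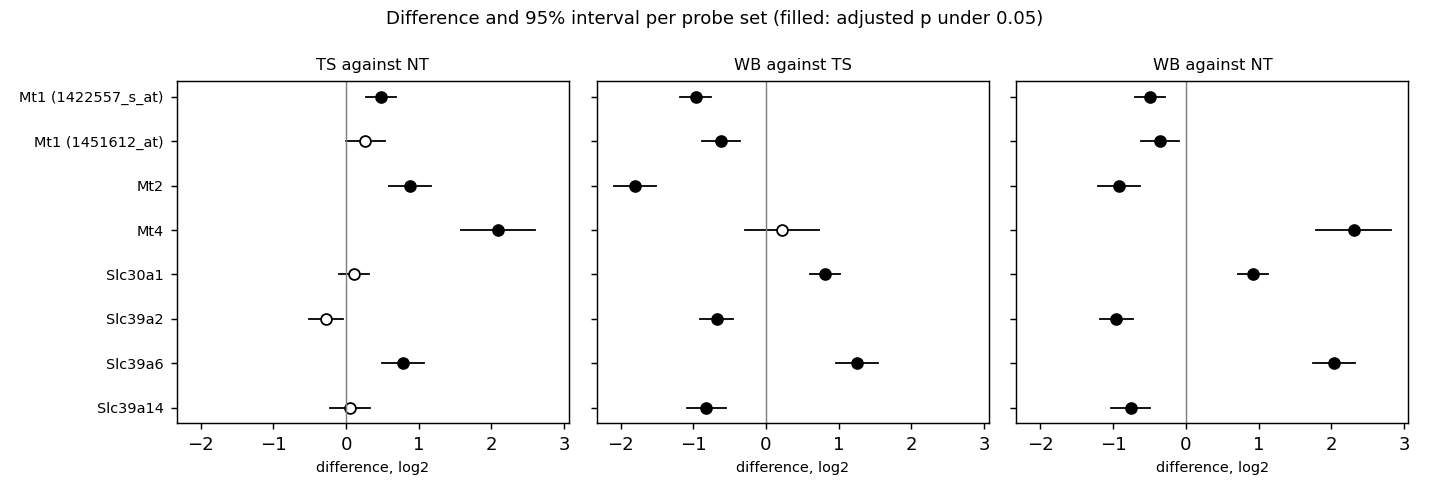
Difference in log2 signal (points) with its 95% interval (lines) for the 8 informative probe sets in the 3 comparisons, filled where the adjusted p was under 0.05. The brighter Mt1 probe set is the upper of the pair. In TS against NT all 4 filled points lie above 0. In both WB comparisons Mt1, Mt2, Slc39a2 and Slc39a14 lie below 0 while Slc30a1 and Slc39a6 lie above it.

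The rest of the zinc transporters, 19 genes of the Slc30a and Slc39a families outside the group, were all on the array, and 10 varied. In TS against NT limma called none of them in either direction by each gene's brightest varying probe set, and at an unadjusted p under 0.05 there was 1 higher and 2 lower. Of all 18193 genes on the array 7.81% rose and 8.36% fell in this comparison, and the median of the 10 was 0.01. A dimmer probe set of Slc30a7, a zinc transporter of the secretory pathway, did pass, at 0.53 (SE 0.06, adjusted p = 1.79e-05), while its brighter probe set differed by 0.03 (adjusted p = 0.954). Among the brightest probe sets that of the importer gene Slc39a8 had the widest difference, 0.39 (SE 0.18), and did not pass (adjusted p = 0.181).

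In WB against TS 5 of these 19 rose and 4 fell, where 19.7% of all genes rose and 16.2% fell, and the median of the 10 varying genes was 0.10 against 0.15 for all varying genes. Slc39a7, which releases zinc from the endoplasmic reticulum, fell by 2.08 (SE 0.15, adjusted p = 5.21e-09), from 9.499 ± 0.14 to 7.42 ± 0.40. Slc39a9 fell by 1.32 (SE 0.08, adjusted p = 1.15e-09), and Slc30a9 rose by 1.07 (SE 0.05, adjusted p = 2.34e-11). The brightest probe set of Slc39a10, a plasma membrane importer close to Slc39a6 in sequence, rose by 1.31 (SE 0.11, adjusted p = 3.81e-08), but another of its probe sets fell by 0.83 (SE 0.10, adjusted p = 1.81e-06). For Slc30a7 the brighter probe set fell by 0.69 and the dimmer rose by 1.00 (adjusted p = 3.04e-10). Both genes with a further varying probe set thus had calls in opposite directions between WB and TS. In WB against NT 4 of the 19 rose and 4 fell, beside 19.1% and 17.1% of all genes.

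**Figure D5:**
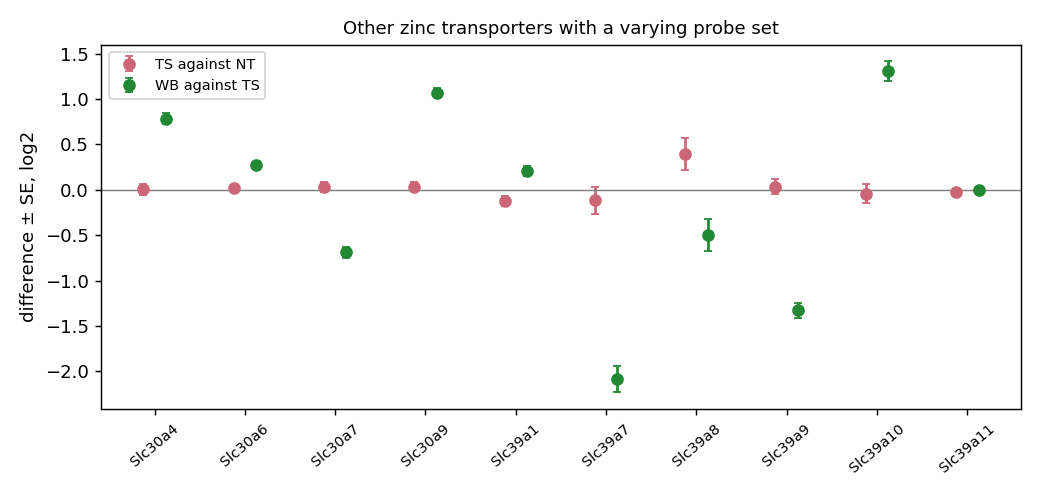
Difference in log2 signal ± SE for the 10 other zinc transporter genes with a varying probe set, each by its brightest, in TS against NT and in WB against TS. The TS against NT values lie between -0.13 and 0.39, and the WB against TS values spread from -2.08 to 1.31.

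Of 16 genes of zinc sensing and copper handling, all on the array, 11 varied. By each gene's brightest varying probe set 1 rose and 2 fell in TS against NT (limma), with a median of -0.05. Dimmer probe sets of genes not called did pass there. Those of the copper genes Slc31a1, Slc31a2 and Atox1 rose by 0.54, 0.29 and 0.24 (adjusted p = 0.000135, 0.0267 and 0.0442). One of Sod1 fell by 0.26 (adjusted p = 0.0371). Mtf1, the zinc sensor itself, was at 7.35 ± 0.05 in NT and 7.39 ± 0.04 in TS (difference 0.04, SE 0.02, adjusted p = 0.263), and fell by 0.22 (SE 0.02, adjusted p = 2.58e-07) in WB against TS. The copper pump gene Atp7a rose by 0.35 (SE 0.06, adjusted p = 0.00114) in TS and by a further 1.05 (SE 0.06, adjusted p = 5.77e-10) in WB against TS, where 3 genes of the list rose and 6 fell. The mitochondrial copper chaperone gene Cox17 fell by 0.52 (SE 0.05, adjusted p = 2.96e-06) and the metalloreductase gene Steap4 by 0.64 (SE 0.13, adjusted p = 0.0026) in TS against NT. In WB against TS the copper chaperone gene Atox1 fell by 3.03 (SE 0.05, adjusted p = 7.11e-17), while of its other probe sets 1 fell by 5.98 (adjusted p = 6.90e-19) and 1 rose by 0.62 (adjusted p = 4.87e-08). In WB against NT 3 of the 16 rose and 8 fell. Sod1 is counted as risen in both WB comparisons (0.46 from TS and 0.26 from NT). Another of its probe sets fell, with differences of -0.84 and -1.10, and a further one rose by 0.67 and 0.72. Of all genes 7.81% rose and 8.36% fell in TS against NT. The shares were 19.7% and 16.2% in WB against TS, and 19.1% and 17.1% in WB against NT. Among varying probe sets on the array 89.3% were called in WB against NT.

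Iron handling was taken because Slc39a14 also carries iron. Of the 12 genes of that list on the array none rose and 2 fell in TS against NT (limma; at an unadjusted p under 0.05, 1 higher and 3 lower), namely the iron-regulated aconitase Aco1 (-0.90, SE 0.13, adjusted p = 0.00021) and the ferritin heavy chain Fth1 (-0.41, SE 0.07, adjusted p = 0.000496). In WB against TS 5 rose and 3 fell, and in WB against NT 4 rose and 4 fell, by each gene's brightest probe set. The shares of all genes in each comparison are those given above. The heme oxygenase gene Hmox1 fell by 3.56 (SE 0.13, adjusted p = 2.23e-12) against TS and by 3.76 against NT. Against TS Lcn2 fell by 3.08 (SE 0.57, adjusted p = 0.000258), and Slc40a1 rose by 0.71 (SE 0.13, adjusted p = 0.000211). Other probe sets differed from these calls in WB against TS: Aco1, counted as risen (0.84), fell by 1.73 (adjusted p = 4.16e-11) in another, and Fth1, not called, fell by 4.08 (adjusted p = 4.25e-07) in another. Of 4 other probe sets of Cp, also not called, 3 fell, with differences of -1.01 to -0.78.

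Mt1 and Mt2 are known glucocorticoid-inducible genes, and 10 other such genes were set beside them. In TS against NT 3 rose and none fell (limma; at an unadjusted p under 0.05, 5 higher and none lower), with a median of 0.66. They were the metabolic kinase gene Pdk4 (2.16, SE 0.42, adjusted p = 0.00213), the leucine zipper gene Tsc22d3 (1.18, SE 0.35, adjusted p = 0.0329) and the receptor co-chaperone gene Fkbp5 (0.65, SE 0.17, adjusted p = 0.0166). In WB against TS 5 of the 10 rose and 2 fell. The largest rises were those of Errfi1 (2.07, SE 0.53, adjusted p = 0.004), Cebpd (2.04, SE 0.47, adjusted p = 0.0018) and Sgk1 (1.55, SE 0.11, adjusted p = 9.14e-09). Another probe set of Cebpd rose by 1.60 (adjusted p = 1.30e-07), and another of Errfi1 did not pass (-0.59, adjusted p = 0.123). Tsc22d3 fell by 2.21 (SE 0.35, adjusted p = 6.45e-05) in WB against TS. Another of its probe sets fell by 1.73 (adjusted p = 0.00125), and the third rose by 0.60 (SE 0.14, adjusted p = 0.00221). Klf9, counted among the 5, rose by 1.09 (adjusted p = 0.000448), but another of its probe sets fell by 1.65 (adjusted p = 1.49e-07). In WB against NT 8 rose and 1 fell. The fallen gene was Tsc22d3 (-1.04, adjusted p = 0.0234). Another of its probe sets rose there by 1.09 (adjusted p = 6.73e-06), and the third did not pass (-0.33, adjusted p = 0.562). Klf9 is counted as risen, but another of its probe sets fell by 1.37 (adjusted p = 1.27e-06), while the rest rose. Of all genes 7.81% rose and 8.36% fell in TS against NT, 19.7% and 16.2% in WB against TS, and 19.1% and 17.1% in WB against NT.

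Of 12 genes of the interleukin 6 and STAT3 response, a pathway known to induce Slc39a14 and metallothioneins in liver, 1 rose and 2 fell in TS against NT, with a median of 0.08. At an unadjusted p under 0.05 (limma), 3 were higher and 2 lower. The transcription factor gene Junb rose by 0.81 (SE 0.17, adjusted p = 0.00393), and the acute-phase genes Hp and Lrg1 fell by 1.34 (SE 0.24, adjusted p = 0.0011) and by 1.58 (SE 0.30, adjusted p = 0.00167). Acute-phase genes did not share a direction. Saa3 had the largest difference of the list, 2.26 (SE 0.74), and did not pass (adjusted p = 0.0508). Lcn2, at 1.31 (SE 0.57), did not pass either (adjusted p = 0.156). In WB against TS 4 rose and 3 fell, and in WB against NT 6 rose and 4 fell, beside the shares of all genes given above. Il6st, the shared receptor subunit of this cytokine family, is counted as risen in both (0.49 and 0.27). But its other probe sets fell, with differences of -1.94 and -1.58 in WB against TS and of -2.45 and -1.84 in WB against NT. The brightest probe set of Il6st did not pass in TS against NT (-0.22, adjusted p = 0.217). Another of its probe sets fell there by 0.51 (SE 0.10, adjusted p = 0.00168).

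The genes most like Mt1, Mt2 and Mt4 in their course over the 18 arrays were sought among 7436 varying genes, by the root mean square difference of profiles centred on their means. For Mt4, whose own centred profile has a root mean square of 1.11, they were Them5 (0.27), Hrnr (0.30) and Ggct (0.34). Hrnr averaged 10.14 in NT, 12.10 in TS and 12.11 in WB. For Mt1 (own value 0.42) they were Snhg12 (0.14), Hbegf (0.15) and Als2cl (0.17), and for Mt2 (own value 0.76) Eif3b, Eif2b1 and Snrpg (0.27, 0.27 and 0.29). Eif3b averaged 9.56, 10.21 and 8.58 in NT, TS and WB. All of these genes were picked by likeness over the same arrays, so a shared order of the groups follows from the choice.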

How the data were processed

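Total RNA of dorsal skin from 18 mice was hybridised to Affymetrix Mouse Genome arrays, 6 per group, per the labels. The authors deposited 1 signal per probe set and array, read here as log2 from its span of 2.93 to 19.04, and how they summarised and normalized it is not stated in the labels. Folds rest on that base. No measure of background was used, and a fold is given only where the lower mean reaches its group's array median. All 18 arrays entered 1 two-sided limma fit without covariates (limma 3.58.1, R 4.3.3). P-values were adjusted by Benjamini-Hochberg over 45037 probe sets (64 controls left out), and differences were called at adjusted p under 0.05 with a difference of at least 0.01. Of simulated TS changes of 0.5 and 1 log2, 70 and 94 of 100 were recovered over 45037 probe sets, with 4 false calls. Constant probe sets could not be called in this simulation, so the false calls come from the varying ones. Far fewer probe sets were changed in it than were called in the data, so recovery in the data can differ. All member probe sets are described, and each gene of a list stands by its brightest varying probe set. Of each list at most the 4 largest called genes per comparison were to be named. Mtf1, Slc39a8, Saa3, Lcn2 in TS against NT and further probe sets were chosen after their values were seen. Members and lists were chosen with earlier results of these data known, so p-values of members are no independent evidence. The labels call the replicates biological. Sequences are RefSeq's (GRCm38.p6). Alternatives covered normalization, filters, array weights, fitted arrays, variance trend, a replicate block, gene means and each array left out.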

Additional observations from a re-analysis of the deposited data

Results flagged for a closer look

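Of 24 sets of 6 arrays (8 probe sets in 3 groups), 1 held an array that stood apart by Dixon's test, which chance gives in about 1 of 20 sets. It was Mt4 on TS 5, at 10.04, where the next lowest TS array was at 10.98, a gap of 0.68 of the group's range. Without TS 5 the difference of Mt4 between TS and NT was 2.28, and between WB and TS 0.02.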

How the results depend on the processing

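The counts of called probe sets moved by at most 1.5 times under all 27 alternatives: 4 to 5 in TS against NT, 6 to 7 in WB against TS and 7 to 8 in WB against NT, the lowest of the last 2 being reached where Mt1 counts once as a gene mean (and, in WB against NT, without NT 3). Leaving out each array in turn gave 4, 7 and 7 to 8. Of 645 values of single probe sets under alternatives, 641 kept direction and call. The sign of Slc39a14 in TS against NT, never called, turned to -0.056 without TS 5, and over all arrays left out it ran from -0.056 to 0.13. No sign that the replicate numbers pair the arrays was found. Deviations from the group mean over the varying probe sets correlated at -0.27 to 0.14 between same-numbered arrays of different groups. By the same measure 3 of 18 arrays correlated best with an array of their own number in another group. With the replicate block the counts were 4, 7 and 8. Over the whole table quantile normalization called 6804 probe sets in TS against NT against 4551, and 39795 in WB against TS against 10612 (88.1% higher against 53.1%), and in WB against NT 41328 against 10667 (88.3% higher against 51.2%). Median centring called 43993 in each WB comparison. Both scalings shift the constant probe sets. Among varying probe sets quantile normalization called 10910 in WB against TS (56.7% higher) and moved their median difference from 0.09 to 0.19, and in WB against NT from 0.01 to 0.13. In TS against NT it called 4674 of them (54.6% higher, as against 49.2%), while its whole-table calls were 68.8% higher. Gene means called 6440 and 6551 genes in the WB comparisons. The table gives no background, which limits what can be said of the dim Mt1 probe set.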

Other observations

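Array TS 5 was at an end of its group for most of the informative probe sets. It was the highest TS array in 4 of 8, Mt2, Slc39a14 and both Mt1 probe sets, and the lowest in 3 of 8, Mt4, Slc30a1 and Slc39a2, while Slc39a6 lay within the group. Over all 11946 varying probe sets TS 5 was highest in 18.5% and lowest in 22% of cases. Mt1 and Mt2 on the side of high values and Mt4 on that of low values thus stood at opposite ends on this array. Among NT arrays, NT 6 was the highest in 4 of 8 probe sets, Mt2, Slc39a6, Slc39a14 and the brighter Mt1 probe set, against 18.3% of all varying probe sets. NT 4 was the lowest in 6 of 8, against 19.7%. The probe sets share each array's RNA, and the counts are descriptions without a test.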
